A study of Mus musculus with 14 samples.

Results

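Serpins are a superfamily of proteins that share one fold, and most of them block proteases. The family was taken as every mouse gene whose symbol begins with Serpin, a clade letter from a to i and a number. This gave 55 genes over 3 tables of mouse liver RNA: 51 of the 23404 genes in one bulk table, 43 of 20337 in the other and 42 of 21911 in the table of nuclei. Clade A held 28 of them, clade B held 17, clade E held 3, clade F held 2, and clades C, D, G, H and I held 1 each. On the mouse chromosomes 27 members lay on chromosome 12, between 103614786 and 104414329 (mm10, GENCODE M21), 10 on chromosome 13 and 9 on chromosome 1.

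The series examined mouse liver in steatohepatitis and after injection of lipid droplets. Bulk RNA of whole liver was sequenced in 4 labelled groups of 3 libraries. The first pair is wild type (WT) and Ms4a7 KO mice, both fed a diet that causes nonalcoholic steatohepatitis (NASH) for 22 weeks. The second pair is wild type mice on chow, injected in the tail vein over 6 consecutive days with either lipid droplets (LD) or PBS. Nuclei came from the NASH diet at 22 weeks, as 1 library per genotype that pools 3 livers. The labels do not give sex or age, the kind of KO allele, or whether replicates are separate animals, so p-values measure only the spread between these libraries, which may be technical. A fall in bulk liver can come from fewer cells of a type or from less RNA per cell, and bulk values cannot tell these apart.

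Labels and tables disagreed, and this touches every direction below. The table labelled WT and KO is named for lipid droplets, and its header line reads Untreated and Treated. The table labelled PBS and LD is named for Ms4a7. Ms4a7, a macrophage membrane protein gene, was 9.70, 25.8 and 23.3 normalized counts in libraries labelled WT and 102, 117 and 136 in those labelled KO. It was 62.2, 84.7 and 163 in the libraries labelled PBS and 10.50, 7.60 and 9.32 in those labelled LD. The targeted gene was therefore higher in every library labelled KO than in every library labelled WT, and lower in every library labelled LD than in every library labelled PBS. Groups are called by their labels throughout, and a direction belongs to the libraries with that label. Whether the 2 tables were exchanged was not tested. Libraries held 21945394 to 23126164 gene reads in the table labelled WT and KO and 39318264 to 41346464 in the other. Serpin genes took 4.08% to 6.31% of them in the first and 1.91% to 3.01% in the second. LD replicate 3 differed from the other LD libraries by a chi-square per degree of freedom of 57.1 and 57.3, against 18.3 between those 2. Pairs within the other groups had 21.85 to 39.4 in PBS, 37.4 to 48.9 in WT and 56.8 to 74.6 in KO.

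An inhibitory serpin offers the protease an exposed reactive centre loop as bait. When the protease cuts the loop, the serpin snaps into a more stable shape and holds the protease in a covalent complex, which liver receptors then clear. In liver, hepatocytes secrete most plasma serpins of clades A, C, D, F and G, among them inhibitors of elastase, thrombin, plasmin and complement C1s. Some members inhibit nothing: Serpina6 and Serpina7 carry steroid and thyroid hormones, and Serpinh1 helps collagen fold.

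The loop is where duplicated serpins differ most, so the coding stretch around it is shown for the copies whose counts matter below. Sequences are from GENCODE M21 transcripts, given 5′ to 3′. The 5 mouse copies of Serpina1, the gene of alpha-1-antitrypsin, differ at 13 of these 66 bases, and the capitals mark those bases.
Serpina1a: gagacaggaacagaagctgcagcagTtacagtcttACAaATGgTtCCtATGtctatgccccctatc
Serpina1b: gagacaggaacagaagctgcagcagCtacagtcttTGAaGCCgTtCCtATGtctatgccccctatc
Serpina1c: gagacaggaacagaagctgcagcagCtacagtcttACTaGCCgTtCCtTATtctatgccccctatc
Serpina1d: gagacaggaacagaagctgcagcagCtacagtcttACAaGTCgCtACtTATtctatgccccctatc
Serpina1e: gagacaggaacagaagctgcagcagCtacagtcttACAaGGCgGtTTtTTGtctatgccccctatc
Any 2 of these copies differ at 4 to 8 of the 66 bases.

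The Serpina3 copies, related to human alpha-1-antichymotrypsin, have closely similar ends of the stretch, in places differing by single bases, while the middle differs in sequence and length. Capitals mark the part between the aligned ends.
Serpina3k: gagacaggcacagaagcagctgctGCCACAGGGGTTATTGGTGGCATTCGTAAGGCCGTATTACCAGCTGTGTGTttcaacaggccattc
Serpina3m: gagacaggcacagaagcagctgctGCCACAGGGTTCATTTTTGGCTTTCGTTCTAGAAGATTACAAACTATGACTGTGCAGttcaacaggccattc
Serpina3n: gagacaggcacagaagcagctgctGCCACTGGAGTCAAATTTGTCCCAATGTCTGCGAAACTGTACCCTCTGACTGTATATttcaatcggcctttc
Serpina3g: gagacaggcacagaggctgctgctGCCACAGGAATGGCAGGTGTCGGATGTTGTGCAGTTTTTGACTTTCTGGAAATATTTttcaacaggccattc
Serpina3h: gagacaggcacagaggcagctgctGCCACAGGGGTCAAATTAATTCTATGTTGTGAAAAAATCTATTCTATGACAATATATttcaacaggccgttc
Serpina3h is annotated as a transcribed pseudogene.

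These copies share sequence to very different degrees, and the read counter is not given in the sources used here. Of the 100-base words in its transcripts, Serpina1c shares 58.5% with transcripts of other genes, Serpina1a 42.8%, Serpina1d 29.3%, Serpina1b 14.8% and Serpina1e 14.4%. The share was 6.09% for Serpina3m, 4.85% for Serpina3k, 3.60% for Serpina3h, 3.49% for Serpina3g and 0.204% for Serpina3n. Serpina11 shares 32.8% of its words with the gene model Gm28577. With 50-base words the share rose to 21.9% for Serpina3h, 19.1% for Serpina3m, 15.5% for Serpina3g, 14.04% for Serpina3k and 6.90% for Serpina3n. For Serpina11 it was 35.7%. Values of single Serpina1 copies, single Serpina3 copies and Serpina11 are therefore uncertain. Sums over the Serpina1 copies and over the Serpina3 copies are given beside the single values. In the annotation Serpina3m also spans Serpina3k, and Serpina1b spans Serpina1d.

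Per length, the 5 Serpina1 copies and Serpina3k stood above all other serpins in the libraries labelled WT. In normalized counts per kilobase of the longest principal transcript, libraries labelled WT averaged 189705 for Serpina1a, 187362 for Serpina1c, 183984 for Serpina3k and 135340 for Serpina1b. Serping1, which encodes C1 inhibitor, followed at 20477 per kilobase and Serpinf1, which encodes the antiangiogenic factor PEDF, at 12437. Serpinc1, the gene of antithrombin, stood at 10633 per kilobase. In libraries labelled PBS the order began with Serpina1b at 113268 per kilobase, Serpina1c at 71504, Serpina1d at 55790 and Serpina3k at 53484. There Serpina1e, at 7274 per kilobase, lay below Serping1 at 24336 and Serpinf1 at 15915. The 2 tables were scaled separately, so levels are compared only within each.

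**Figure D1:**
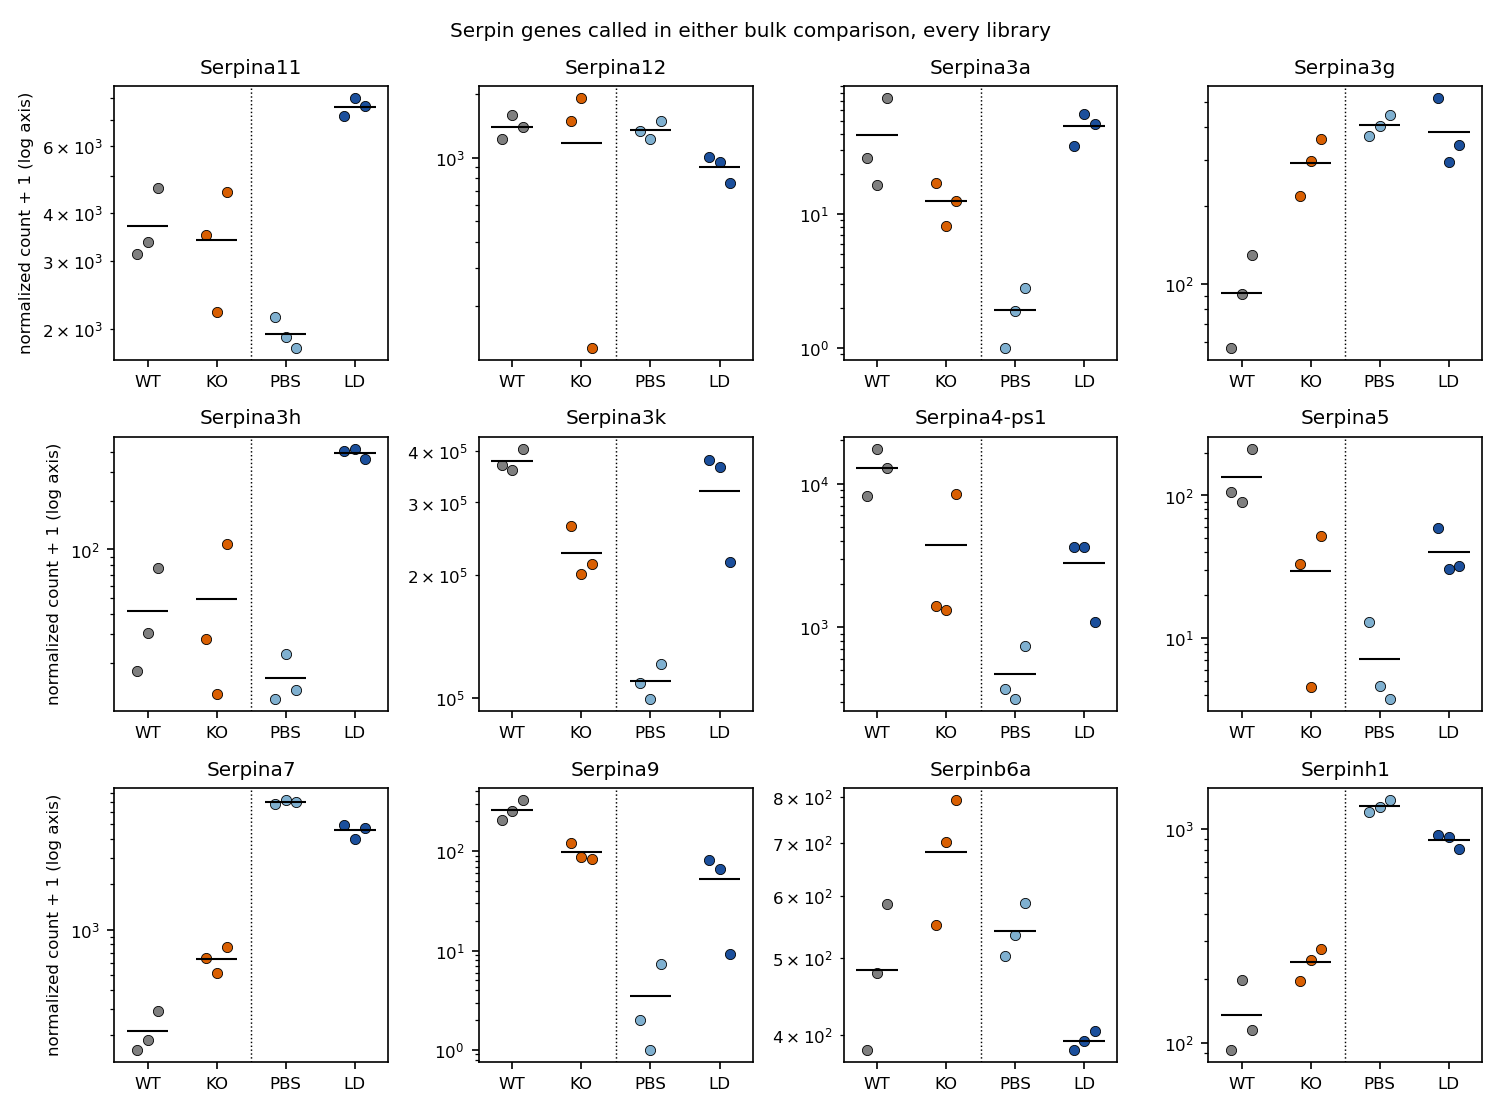
Normalized count plus 1 (log axis) in every bulk library for the 12 serpin genes called in either comparison. Points are libraries, bars are group means over 3 libraries, and the dotted line separates 2 tables that were scaled separately. Serpina11 lies between 7165 and 7968 in the libraries labelled LD and between 1784 and 2145 in those labelled PBS.

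By its labels, the first comparison asks what differs in the NASH-diet liver without Ms4a7. Of 51 serpins, 35 passed the filter on low values (at least 10 normalized counts in at least 3 libraries) and 3 passed limma's test at an adjusted p under 0.05. Serpina7 and Serpina3g were higher in the libraries labelled KO, and Serpina9 was lower. Over all 15827 genes tested, 3.72% were called, against 3 of 35 serpins (8.57%). By direction, 2 serpins were higher, beside 3.02% of all genes, and 1 was lower, beside 0.701%. At an unadjusted p under 0.05 there were 15 serpins (42.9%), beside 18.7% of all genes. In 4 serpins all KO values lay above all WT values and in 10 below, or 40.0% of those tested beside 24.2% of all genes. On recovered reads edgeR called 2 higher and 2 lower, beside 4.09% of all genes, and DESeq2 3 higher and 6 lower, beside 7.84%. The median log2 fold change of the tested serpins was -0.16, beside -0.02 for all genes. Fold changes are on the scale of log2 of the normalized count plus 1, which understates changes of low genes.

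Serpina7 encodes thyroxine-binding globulin, the plasma carrier of thyroid hormone, and lies on chromosome X (139079257 to 139085236, minus strand). It was 159, 185 and 290 normalized counts in libraries labelled WT and 646, 515 and 766 in those labelled KO. All 3 KO values lay above all 3 WT values, with means of 211 ± 69.6 and 643 ± 125 (SD, n = 3 libraries). The log2 fold change was 1.63 ± 0.24 (SE), with an adjusted p of 0.0160 by limma. The call was lost without WT replicate 2 or KO replicate 3, at an adjusted p of up to 0.0561.

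Serpina3g (chromosome 12, 104236245 to 104241939, plus strand) encodes an intracellular serpin of immune cells that inhibits cathepsins. It was 55.8, 90.4 and 129 normalized counts in libraries labelled WT and 216, 295 and 359 in those labelled KO. The groups did not overlap, and the change was 1.70 ± 0.32 in log2 (limma adjusted p = 0.0328). It was lost in 4 of the 6 fits without 1 library (WT replicate 1 or 2, KO replicate 2 or 3), at an adjusted p of up to 0.106. Its neighbour Serpina3f had 31.5, 51.6 and 68.6 in WT against 93.4, 134 and 198 in KO, a log2 difference of 1.47 ± 0.36 that did not pass (adjusted p = 0.0692).

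Markers of other cells moved in the same libraries. Of the 8 macrophage and Kupffer cell markers listed, 4 rose (Marco, Timd4, Cd5l and Csf1r), and the summed level of the list was 4035 to 7972 normalized counts in WT and 22545 to 41440 in KO. None of the 8 endothelial or 3 T and NK cell markers tested was called, and of 3 neutrophil markers tested Csf3r rose. In the pooled nuclei, described below, Serpina3g was highest in the endothelial-like and T or NK cell-like groups. The part of any of these cell types in the change of Serpina3g was not tested. Lysosomal cysteine proteases are the class that includes targets of Serpina3g. Of the 6 tested, 2 rose: Ctss, from a mean of 519 to 2078, and Ctsc, from 1617 to 5175. None of the 6 fell.

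Serpina9 encodes centerin, known from B cells of germinal centres, and lies on chromosome 12 (103994743 to 104013755, minus strand). It was 205, 252 and 323 normalized counts in libraries labelled WT and 120, 87.4 and 82.9 in those labelled KO. Every KO value lay below every WT value, and the log2 fold change was -1.41 ± 0.22 (limma adjusted p = 0.0186). It was called in 2 of the 6 fits without 1 library and lost without WT replicate 2 or 3 and KO replicate 2 or 3, at an adjusted p of up to 0.0718. The marker list of B and plasma cells had no called gene among the 4 tested, with summed levels of 50.9 to 173 in WT and 107 to 458 in KO. In the pooled nuclei, described below, the mean Serpina9 level was 0 in the B cell-like group in both genotypes. It was 0.00371 and 0.00235 in the hepatocyte-like WT groups 0 and 1, and 0.0677 and 0.101 in the KO. The highest value elsewhere was 0.0122, in the T or NK cell-like KO nuclei. The part of B cells in the bulk change of Serpina9 was not tested.

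The abundant plasma inhibitors of clade A did not pass limma's test between the libraries labelled KO and WT. Serpina3k, a kallikrein-binding serpin (chromosome 12, 104338486 to 104346144, plus strand), was 371135, 360356 and 403876 normalized counts in WT and 262925, 201006 and 212793 in KO. The groups did not overlap, with a log2 difference of -0.75 ± 0.22 (limma adjusted p = 0.117). It passed with edgeR (-0.72, adjusted p = 0.0387), with DESeq2 (-0.735, adjusted p = 2.46e-06) and after quantile normalization (-0.78, adjusted p = 0.0482). Serpina3m, its nearest copy, had 13079, 10322 and 15492 in WT and 8898, 8936 and 8979 in KO, a difference of -0.52 ± 0.15 (adjusted p = 0.108) that passed with DESeq2 (adjusted p = 0.0175). Serpina3n, an inhibitor of granzyme B, at 23471, 18442 and 17211 in WT and 14200, 17863 and 11259 in KO, differed by -0.46 ± 0.19 with overlapping groups (adjusted p = 0.252). Summed over all its copies, Serpina3 averaged 411408 ± 24015 in WT and 249499 ± 32091 in KO (SD, n = 3), a log2 difference of -0.73 ± 0.23 (adjusted p = 0.136).

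Serpina1e varied more within groups than any difference between them. It was 200408, 327783 and 28929 normalized counts in libraries labelled WT and 225938, 483800 and 21497 in those labelled KO. One library of each group, WT replicate 3 and KO replicate 3, was thus roughly an order of magnitude below its group's others. The log2 difference was 0.10 ± 1.26 (limma adjusted p = 0.976). The other copies were steadier: Serpina1a, Serpina1b and Serpina1c each had all KO values below all WT values, with differences of -0.32, -0.35 and -0.30 that did not pass limma's test (adjusted p of 0.423, 0.384 and 0.471). DESeq2 called Serpina1a and Serpina1b (adjusted p of 0.0301 and 0.0304), but not Serpina1c (0.0784). Serpina1a stood at 247273, 256224 and 270500 normalized counts in WT and 220715, 196764 and 201477 in KO. Serpina1b stood at 236283, 237077 and 242047 in WT and 205502, 187754 and 171320 in KO. Serpina1d overlapped between groups, with a difference of -0.16 ± 0.27 (adjusted p = 0.802). Over the 5 copies, the sum was 1071730, 1210970 and 889370 in WT and 989513, 1219600 and 659163 in KO, a difference of -0.18 ± 0.38 (adjusted p = 0.853).

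**Figure D2:**
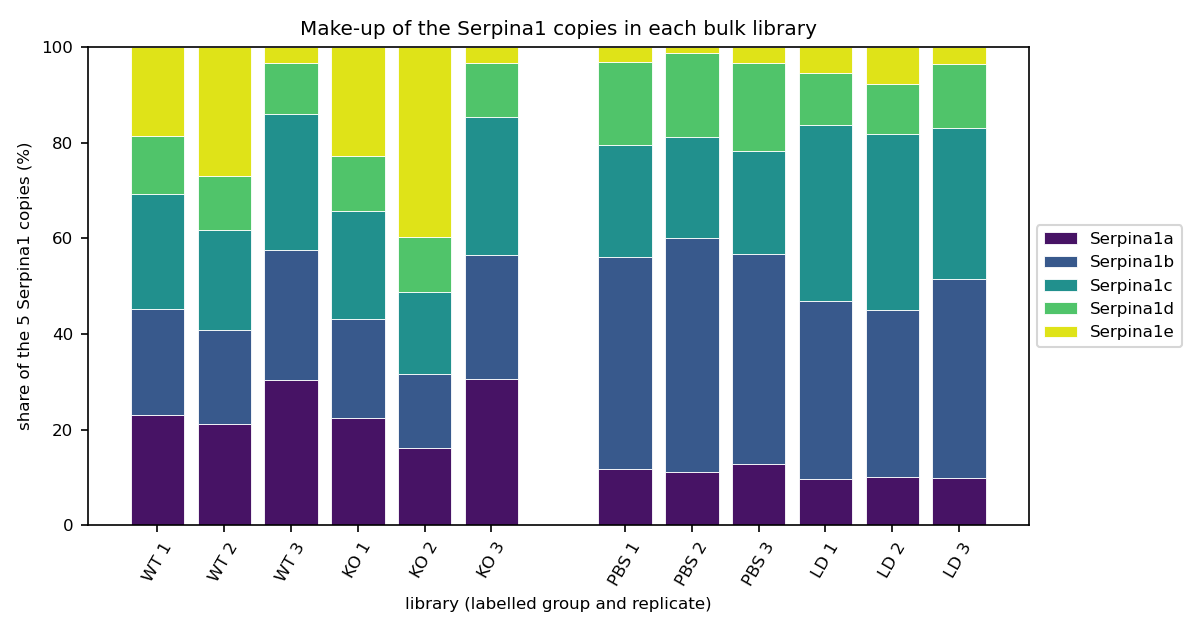
Share of the 5 Serpina1 copies in each bulk library, in percent of their summed normalized counts; each bar is 1 library, named by its labelled group and replicate. Serpina1e takes 3.25% to 39.7% in the libraries labelled WT and KO and 1.25% to 7.65% in those labelled PBS and LD.

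Other hepatocyte serpins had large spreads too. Serpina4-ps1, annotated as a pseudogene, was 8180, 17277 and 12900 normalized counts in WT and 1401, 1307 and 8419 in KO, a log2 difference of -2.29 ± 0.68 (limma adjusted p = 0.120). KO replicate 3 lay above WT replicate 1, so the groups overlapped. Serpina12, which encodes the adipokine vaspin, was 1220, 1596 and 1387 in WT and 1487, 1901 and 126 in KO, and its difference of -0.97 ± 0.91 came with 1 low library. Serpina5, the gene of protein C inhibitor, was 105, 89.1 and 209 in WT and 31.9, 3.55 and 50.7 in KO, a difference of -2.68 ± 0.85 (adjusted p = 0.143) between groups that did not overlap. It passed with DESeq2 (-2.22, adjusted p = 0.00674).

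Inhibitors of coagulation, fibrinolysis and complement differed little between the libraries labelled KO and WT. Serpinc1 averaged 52847 ± 2230 normalized counts in WT and 49744 ± 2351 in KO (SD, n = 3), a log2 difference of -0.09 ± 0.12. Serpind1, the gene of heparin cofactor II, differed by -0.04 ± 0.10, and Serpinf2, the gene of alpha-2-antiplasmin, by -0.07 ± 0.11. Serping1 was 35397, 36363 and 36852 in WT and 32305, 42980 and 37031 in KO, a difference of 0.04 ± 0.14. Among the proteases these inhibitors act on, none of the 12 tested genes of coagulation, kallikrein and complement was called by limma. Of 9 tested genes of fibrinolysis and plasminogen activation, Procr rose, from a mean of 14.1 to 214 normalized counts. S100a10 of that list fell, from a mean of 1579 to 910.

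Serpinh1 and Serpine2 were low and did not pass. Serpinh1, the collagen chaperone Hsp47, was 92.1, 196 and 114 in WT and 194, 245 and 275 in KO, a log2 difference of 0.88 ± 0.28 (limma adjusted p = 0.145) between overlapping groups. None of the 12 genes listed as collagen folding partners was called. Serpine2, protease nexin 1, differed by -0.27 ± 0.30 (adjusted p = 0.709).

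Clade B serpins act inside cells. Serpinb6a, a cathepsin G inhibitor, was 382, 478 and 585 normalized counts in WT and 549, 701 and 790 in KO, a log2 difference of 0.50 ± 0.19 (limma adjusted p = 0.210). Serpinb8 was 175, 172 and 176 in WT and 106, 158 and 96.8 in KO, a difference of -0.56 ± 0.20 (adjusted p = 0.187) between groups that did not overlap. Serpinb9, an inhibitor of granzyme B, differed by -0.12 ± 0.11, and Serpinb1a, an inhibitor of neutrophil proteases, by -1.31 ± 0.52 (adjusted p of 0.633 and 0.236). The other 16 members in the table were not tested because too few libraries reached 10 normalized counts.

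**Figure D3:**
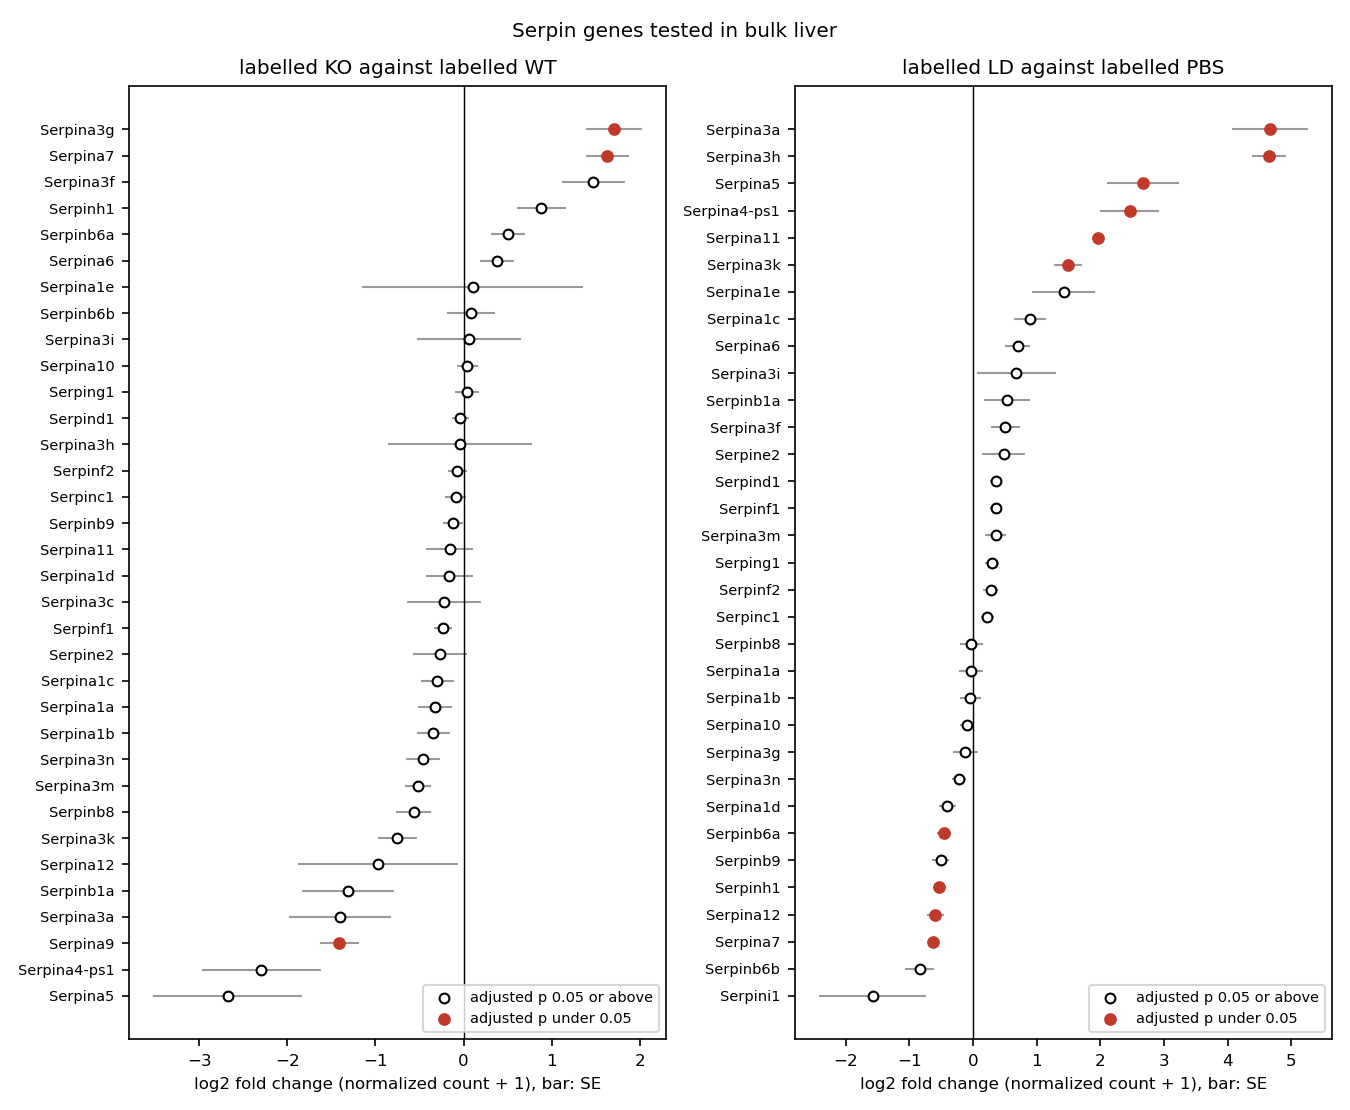
Log2 fold change of 34 (left) and 33 (right) tested serpin genes, on the scale of log2 of the normalized count plus 1, with bars of 1 SE. Filled points have an adjusted p under 0.05 by limma: 3 in the comparison labelled KO against WT and 10 in that labelled LD against PBS.

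Injection of lipid droplets into mice on chow is the contrast of the other bulk table, by its labels. Here limma called 10 of the 34 serpins tested (29.4%), with 6 higher and 4 lower in the libraries labelled LD, beside 4.16% of all 14900 genes tested (1.95% higher and 2.21% lower). At an unadjusted p under 0.05 there were 21 serpins (61.8%), beside 19.7% of all genes. On recovered reads edgeR called 6 higher and 4 lower, beside 4.05% of all genes, and DESeq2 10 higher and 7 lower, beside 8.19%. Whether the share of serpins differs from that of all genes was not tested. The 6 that rose were Serpina11, Serpina3h, Serpina3a, Serpina3k, Serpina4-ps1 and Serpina5. All belong to clade A on chromosome 12, but clade A held 24 of the 43 members in this table. Serpina12, which fell, also belongs to clade A on chromosome 12. Serpina3a passed the filter through LD libraries alone, and Serpina5 reached 10 normalized counts in just 1 PBS library. With a filter on a mean of at least 50, which leaves out both, limma called 4 higher and 4 lower, beside 4.67% of all genes. The 4 that fell were Serpina7, Serpina12, Serpinh1 and Serpinb6a. The median log2 fold change of the tested serpins was 0.29, beside 0.00317 for all genes. In 12 serpins all LD values lay above all PBS values and in 7 below, or 55.9% of those tested beside 25.4% of all genes. Without LD replicate 3 limma called 11 higher and 5 lower, beside 8.23% of all genes, and without PBS replicate 2 it called 3 higher and 0 lower, beside 0.899%.

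Serpina11 (chromosome 12, 103980243 to 103989957, minus strand), a hepatocyte serpin of little-known function, had the smallest adjusted p of the family. It was 2145, 1900 and 1784 normalized counts in libraries labelled PBS and 7165, 7968 and 7628 in those labelled LD. The LD values were tight and far above every PBS value, with means of 1943 ± 184 and 7587 ± 403 (SD, n = 3). The log2 fold change was 1.97 ± 0.09 (limma adjusted p = 2.88e-05), and the call held in all 6 fits without 1 library, at an adjusted p of at most 0.000905.

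The Serpina11 promoter is shown because this gene had the smallest adjusted p. It covers 250 bases before to 50 after the start, from RefSeq on GRCm38.p6, chr12:103989908-103990207, minus strand. Capitals mark the 1 match to the STAT motif TTCNNNGAA, which begins 51 bases before the start.
Serpina11: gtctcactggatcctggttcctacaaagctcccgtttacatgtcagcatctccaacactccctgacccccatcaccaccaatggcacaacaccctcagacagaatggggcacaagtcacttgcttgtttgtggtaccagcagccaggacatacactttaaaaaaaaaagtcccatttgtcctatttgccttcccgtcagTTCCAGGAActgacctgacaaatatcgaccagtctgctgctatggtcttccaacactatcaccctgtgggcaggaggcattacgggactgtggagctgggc
Promoters of 42 of the 55 members were in the RefSeq table. On either strand, this motif was in 8 of them and in 8.33% of all 32544 promoters. The CEBP motif TTGCNNAA was in 13 of 42 and in 10.8% of all, and the AP1 motif TGACTCA in 6 of 42 and in 5.19%. A member with more than 1 promoter counted if any of them matched. The share of all counts each distinct promoter sequence, so the units differ. A match describes these letters only.

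Serpina7 was called in both bulk comparisons, in opposite directions by label, so its promoter is shown too (RefSeq on GRCm38.p6, chrX:139085187-139085486, minus strand). Capitals mark a match to the CEBP motif on the opposite strand, which begins 30 bases before the start.
Serpina7: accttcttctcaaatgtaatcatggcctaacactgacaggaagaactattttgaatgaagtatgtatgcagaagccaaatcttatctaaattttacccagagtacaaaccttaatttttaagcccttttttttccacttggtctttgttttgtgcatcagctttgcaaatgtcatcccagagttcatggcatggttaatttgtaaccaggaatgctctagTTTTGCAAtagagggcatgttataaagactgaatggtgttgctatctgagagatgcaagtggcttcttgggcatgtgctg
Serpina7 was 6818, 7180 and 7002 normalized counts in libraries labelled PBS and 4958, 3997 and 4711 in those labelled LD. Every LD value lay below every PBS value, and the log2 fold change was -0.63 ± 0.09 (limma adjusted p = 0.00974). The call was lost without PBS replicate 2 or 3, at an adjusted p of up to 0.0613.

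Several Serpina3 copies rose together in the libraries labelled LD. Serpina3k was 109154, 99599 and 121299 normalized counts in PBS and 380219, 365188 and 214603 in LD. LD replicate 3 was the lowest of its group but still above every PBS library. The log2 fold change was 1.499 ± 0.22 (limma adjusted p = 0.00889), and the call was lost without PBS replicate 2 (adjusted p = 0.0602).

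Serpina3h (chromosome 12, 104247905 to 104253669, plus strand) went from 11.03, 21.6 and 12.8 normalized counts in PBS to 399.9, 411 and 357 in LD. The groups stood far apart, with a log2 fold change of 4.65 ± 0.26 (limma adjusted p = 0.000114), and every fit without 1 library called it. Serpina3a, of the same cluster, was 0, 0.901 and 1.82 in PBS and 31.5, 55.3 and 46.6 in LD. Only its LD libraries reached 10 normalized counts, so it entered the test through the group where it was high and had to differ. These PBS values are 3 reads in all, against 126 in LD. The ratio of LD to PBS was 47.4, with an exact 95% counting interval of 15.9 to 233 that covers counting error only.

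The remaining Serpina3 copies did not pass. Serpina3m was 10279, 8246 and 7865 normalized counts in PBS and 11741, 13587 and 8775 in LD, a log2 difference of 0.36 ± 0.16 (limma adjusted p = 0.265). Serpina3n differed by -0.22 ± 0.11, Serpina3f by 0.51 ± 0.22 and Serpina3g by -0.12 ± 0.20, with overlapping groups in each. The sum over Serpina3 copies was 146402, 128201 and 152480 in PBS and 413079, 399996 and 243114 in LD, a rise of 1.27 ± 0.21 (adjusted p = 0.0144). Serpina3k made up 74.6% to 92.0% of that sum. The call was lost in 4 of the 6 fits without 1 library (PBS replicate 2 or 3, LD replicate 1 or 2), at an adjusted p of up to 0.0803.

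Serpina4-ps1 was 370, 315 and 737 normalized counts in PBS and 3617, 3641 and 1093 in LD, a log2 fold change of 2.46 ± 0.46 (limma adjusted p = 0.0226). All LD values lay above all PBS values, with LD replicate 3 lowest. Serpina5 was 12.03, 3.61 and 2.73 in PBS and 57.7, 29.3 and 31.1 in LD, a fold change of 2.66 ± 0.57 (adjusted p = 0.0352). Each call was lost in 4 of the 6 fits without 1 library, at an adjusted p of up to 0.109 for Serpina4-ps1 (PBS replicate 1 or 2, LD replicate 1 or 2) and 0.130 for Serpina5 (PBS replicate 2 or 3, LD replicate 1 or 2). Serpina9 did not reach the filter in this table, at 1.003, 0 and 6.38 in PBS and 79.8, 65.1 and 8.28 in LD.

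The Serpina1 copies differed among themselves. Serpina1c was 118432, 82451 and 91069 normalized counts in PBS and 217602, 221681 and 118917 in LD, a log2 difference of 0.90 ± 0.25 (limma adjusted p = 0.0812) between groups that did not overlap, and DESeq2 called it (adjusted p = 0.000347). Serpina1d lay lower in all 3 LD libraries, by -0.40 ± 0.13 (limma adjusted p = 0.138), and DESeq2 called it lower (adjusted p = 0.0313). Serpina1e was 15574, 4893 and 13902 in PBS and 32380, 46006 and 13738 in LD, a difference of 1.42 ± 0.50 (adjusted p = 0.154), and LD replicate 3 lay within the PBS range. Serpina1a and Serpina1b differed by -0.04 each, with overlapping groups. The sum of the 5 was 438348 ± 57737 in PBS and 522506 ± 126575 in LD, a difference of 0.23 ± 0.22 (adjusted p = 0.628).

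The members that fell have different roles. Serpinh1 (chromosome 7, 99345376 to 99353239, minus strand) was 1204, 1258 and 1357 normalized counts in PBS and 935, 920 and 801 in LD, with no overlap. Its log2 fold change was -0.53 ± 0.10 (limma adjusted p = 0.0228), lost in 4 of the 6 fits without 1 library (PBS replicate 2 or 3, LD replicate 1 or 2; adjusted p up to 0.103). Of the 12 collagen folding partners tested, 3 fell (Col3a1, Col1a1 and Col1a2, by 0.91, 0.92 and 0.79 in log2) and none rose. Among the 8 stellate cell markers, 3 fell (Col1a1, Rgs5 and Pdgfrb), with summed levels of 30384 to 34599 in PBS and 25664 to 27703 in LD. Among the 7 cholangiocyte markers, 3 fell (Epcam, Spp1 and Krt19), with summed levels of 9573 to 13345 in PBS and 3851 to 7027 in LD. Of 8 macrophage markers Marco rose, from a mean of 81.2 to 356 normalized counts, and none fell. The part of these cell types in the fall of Serpinh1 and of the clade B members was not tested.

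Serpina12 was 1342, 1226 and 1496 normalized counts in PBS and 1001, 955 and 756 in LD, a log2 fold change of -0.59 ± 0.13 (limma adjusted p = 0.0370). Its groups did not overlap, but the call held only without LD replicate 3 among the 6 fits without 1 library (adjusted p up to 0.149). Serpinb6a was 502, 535 and 586 in PBS and 382, 391.7 and 404 in LD, a fold change of -0.46 ± 0.11 at an adjusted p of 0.04998. That call was lost with other pseudocounts, without the filter, and after quantile normalization, and it held only without LD replicate 3 among the fits without 1 library (adjusted p up to 0.196). Over the Serpinb6 copies the fall was -0.59 ± 0.11 (adjusted p = 0.0260), lost in every fit without 1 library except that without LD replicate 3 (adjusted p up to 0.112).

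The other clade B members did not pass limma's test. Serpinb6b stood at 348, 289 and 396 normalized counts in PBS and 231, 133 and 226 in LD, a log2 difference of -0.84 ± 0.22 (limma adjusted p = 0.0761). Serpinb9 stood at 595, 452 and 572 in PBS and 356, 391 and 387 in LD, a difference of -0.50 ± 0.13 (adjusted p = 0.0706). Neither had overlapping groups, and both passed with DESeq2 (adjusted p of 0.00931 for Serpinb6b and 0.0181 for Serpinb9). Serpinb8 was 219.6, 225 and 265 in PBS and 244, 186 and 276 in LD, and Serpinb1a 398, 142 and 202 against 267, 477 and 275; both overlapped.

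Plasma inhibitors of coagulation, fibrinolysis and complement, and Serpinf1, averaged slightly higher in the libraries labelled LD, and none passed limma's test. Serpinc1 was 68978, 62357 and 63175 normalized counts in PBS and 70040, 79699 and 78104 in LD, a log2 difference of 0.23 ± 0.11 (limma adjusted p = 0.277). Serpind1 differed by 0.36 ± 0.09, Serpinf1 by 0.36 ± 0.09 and Serping1 by 0.31 ± 0.11, each with all LD values above all PBS values (adjusted p of 0.0646, 0.0664 and 0.163). Serpinf2, the gene of alpha-2-antiplasmin, differed by 0.28 ± 0.12 with overlapping groups (adjusted p = 0.236). After quantile normalization the differences shrank to 0.06 for Serpinc1, 0.17 for Serpind1, 0.18 for Serpinf1, 0.07 for Serping1 and 0.06 for Serpinf2. DESeq2 called Serpind1 and Serpinf1 (adjusted p of 0.0110 and 0.00494). Of the 12 plasma proteases tested, F7, F11 and C1ra rose and none fell. Of 10 genes of fibrinolysis, Plat fell, from a mean of 134 to 58.4 normalized counts.

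The hormone carriers and other liver gene lists moved as follows. Serpina6, the corticosteroid carrier, was 11373, 9265 and 10727 normalized counts in PBS and 12507, 16465 and 23515 in LD, a log2 difference of 0.70 ± 0.20 (limma adjusted p = 0.0875), and DESeq2 called it (adjusted p = 0.00266). In the other comparison it differed by 0.38 ± 0.19 (adjusted p = 0.359). Of 7 other genes of hormone carriage and steroid handling, 1 rose in LD, Hsd11b1, which regenerates active glucocorticoid. Of 9 male-biased, growth hormone-dependent genes that are no serpins, 6 rose (Hsd3b5, Nudt7, Cyp2d9, Cyp7b1, Slco1a1 and Selenbp2) and none fell, while in libraries labelled KO none rose and 2 fell (Elovl3 and Cyp4a12a). Of 16 acute phase genes, 3 fell in LD (Lcn2, Orm2 and Saa2), and 3 rose in KO (Hp, Cp and Hpx). No marker of hepatocytes was called in LD, with summed levels of 3162104 to 4048276 in PBS and 3941045 to 4270338 in LD.

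In the limma fits, 12 members were called in at least 1 bulk comparison, and Serpina7 alone was called in both among the 33 tested in both. In the authors' deposited table, 7 members were higher and 8 lower at an adjusted p under 0.05 for the comparison labelled KO against WT, beside 9.37% and 6.01% of all genes with an adjusted p there. In the authors' deposited table for LD against PBS, 11 were higher and 7 lower, beside 3.46% and 4.0%.

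Nuclei give the level of each serpin by group. Values are the authors' mean UMIs per 10000 in 12 numbered groups, with 1 pooled library per genotype and no test. How doublets were treated is not given in the sources used here, and group means hold no cells to check. Groups were named from markers, by a rule set with the table in view: 2 hepatocyte-like groups (0 and 1), and stellate cell-like, macrophage-like, endothelial-like, cholangiocyte-like, mesothelial-like, neutrophil-like, dendritic cell-like, B cell-like and T or NK cell-like groups, with group 8 unnamed. Ms4a7 was 1.25 in the macrophage-like WT nuclei and 0.622 in the KO. Serpinc1 was 8.32 and 8.67 in the hepatocyte-like WT groups 0 and 1, and 8.73 and 10.4 in the KO. Serpina7 was 0.699 in group 0, which leads in the perivenous genes Glul and Cyp2e1, and 0.209 in group 1 of the WT.

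Members outside the plasma inhibitors had levels of at most a few UMIs per 10000. Serpinh1 was 0.913 in WT and 1.204 in KO in the stellate cell-like group, and 1.43 and 2.93 in the mesothelial-like group. Serpinb8 was 0.237 and 0.368 in the macrophage-like group and 0.349 and 0.0755 in the dendritic cell-like group. It was 0.280 and 0 in the neutrophil-like group and 0.235 and 0 in the mesothelial-like group. Serpina3g was 0.503 and 0.275 in the endothelial-like group and 0.445 and 0.268 in the T or NK cell-like group, against 0.0573 and 0.106 in the macrophage-like group. Serpinb6a was 0.987 and 1.70 in the endothelial-like group, Serpinb1a was 0.481 and 0.820 and Serpini1, the gene of neuroserpin, 0.859 and 0.998 in the B cell-like group.

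**Figure D4:**
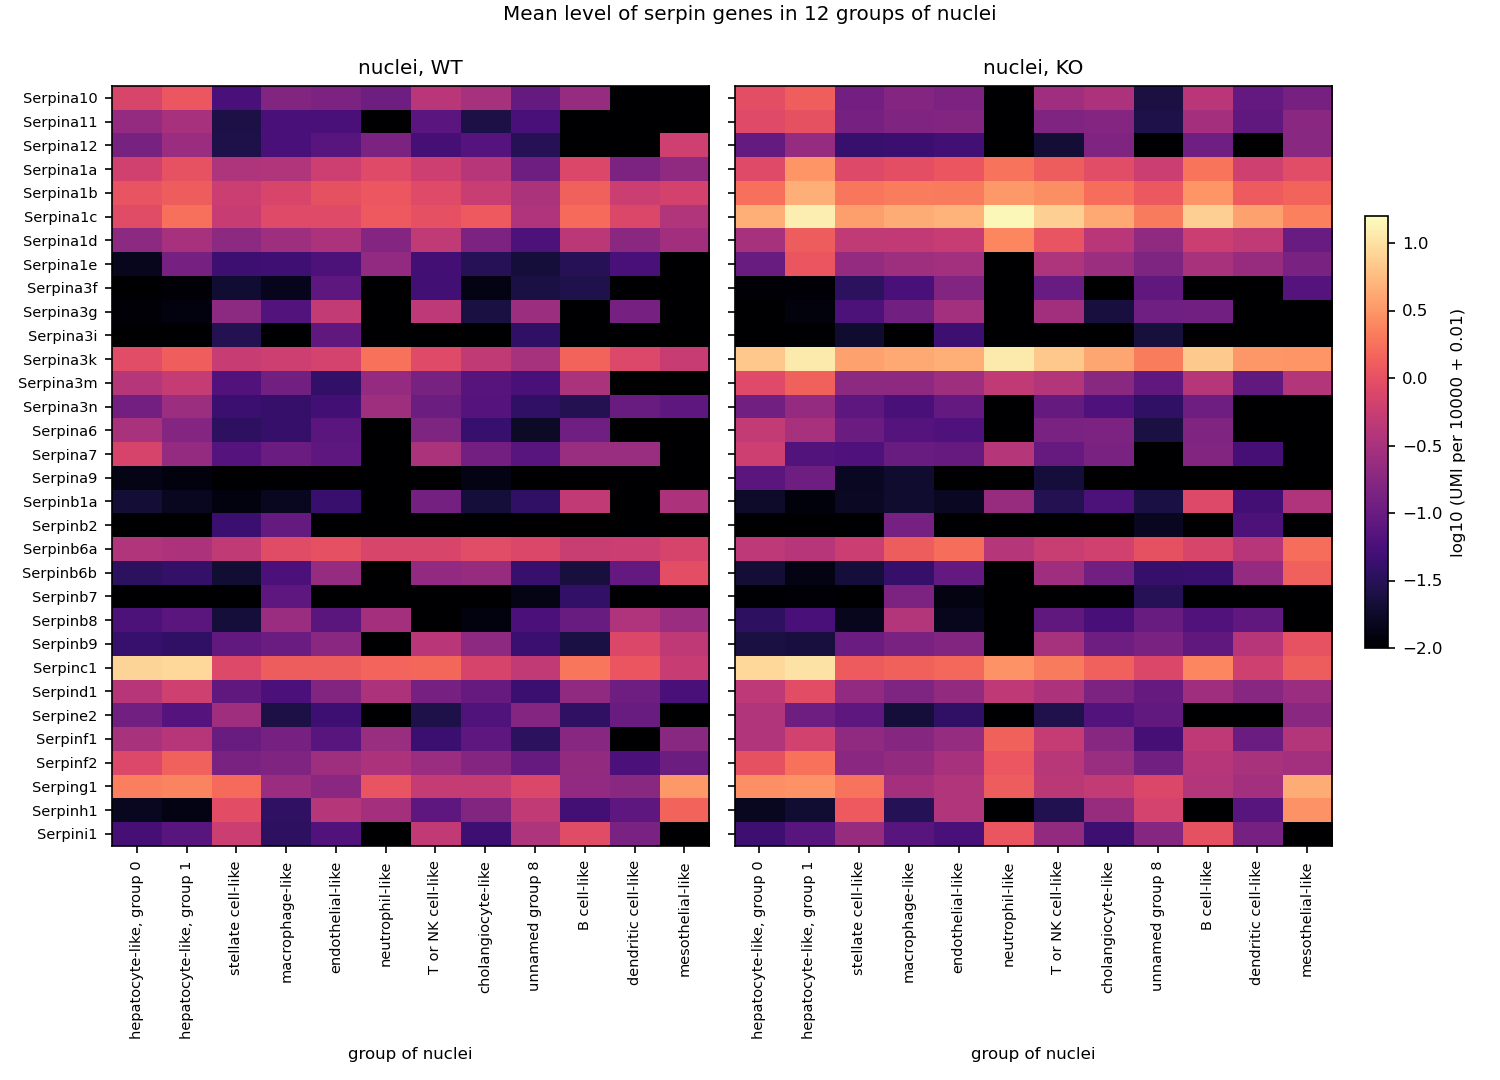
Mean level of 32 serpin genes, as log10 of UMIs per 10000 plus 0.01, in 12 groups of nuclei for WT (left) and KO (right), each from 1 pooled library. Serpinc1 is brightest in the hepatocyte-like groups, and Serpina1c and Serpina3k are brighter in KO in every group.

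Many serpin levels were higher in the KO nuclei. Of 264 values above the floor (the median level over all genes of that group), 116 were at least 2-fold higher in KO, or 43.9% beside 10.1% of all genes, and 22 were at least 2-fold lower, or 8.33% beside 8.28%. These values repeat the same genes over groups of the same pooled libraries, so they are not separate observations. The floor was set on the mean of both genotypes. A gene at 0 in 1 genotype thus entered through the other and could differ in 1 direction only. Serpina3k went from 0.891 to 6.73 in hepatocyte-like group 0 and from 1.32 to 11.6 in group 1, and its log2 ratio lay between 1.99 and 3.14 in all 12 groups. Serpina1c went from 1.76 to 12.4 in group 1, with log2 ratios of 1.82 to 3.45. Serpina3k and Serpina1c were at least 2-fold higher in 12 of 12 groups, Serpina1b and Serpina1e in 11 and Serpina1a in 10. These genes thus recur among the 116. Serpina1e was at least 2-fold lower in 1 group. Serpina11 went from 0.211 to 0.848 in group 0 and from 0.303 to 0.9998 in group 1.

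The counts were spread over the groups. In hepatocyte-like group 0, 7 of 23 serpins above the floor were at least 2-fold higher in KO and 1 lower, beside 3.98% and 1.79% of all genes. Group 1 had 9 of 24 higher and 1 lower, beside 4.21% and 3.93%. The stellate cell-like group had 14 of 24 higher and 3 lower, beside 6.02% and 2.79%. Groups that hold no hepatocytes by name thus showed the same direction. In the macrophage-like group 7 of 21 were higher and 0 lower, beside 4.81% and 2.89%. In the endothelial-like group 8 of 26 were higher and 2 lower, beside 6.86% and 3.75%. In the cholangiocyte-like group 11 of 21 were higher and 0 lower, beside 7.42% and 3.96%. Group 8, left unnamed, followed with 8 of 17 higher and 2 lower, beside 8.0% and 4.03%.

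Among the remaining groups many genes of every kind passed 2-fold. The T or NK cell-like group had 9 of 24 serpins higher and 3 lower, beside 9.03% and 7.5% of all genes. The B cell-like group had 10 of 23 higher and 0 lower, beside 11.6% and 9.62%. The dendritic cell-like group had 8 of 18 higher and 3 lower, beside 17.2% and 14.3%. The share of all genes past 2-fold was largest in the neutrophil-like and mesothelial-like groups, in both directions. In the neutrophil-like group 10 of 21 serpins were higher and 4 lower, beside 23.4% and 32.2%. In the mesothelial-like group 15 of 22 were higher and 3 lower, beside 21.2% and 16.1%. Those higher there included Serpine2, Serpina10, Serpina1e, Serpina11 and Serpina3m, which were 0 in WT and entered through KO alone. Serpinb8, among those lower, was 0 in KO.

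Hepatocyte RNA was present in every group of nuclei, and it differed by genotype. Alb, the albumin gene, was 3.13 to 22.5 over the 12 WT groups and 8.22 to 46.7 over the KO groups. Its KO to WT ratio was 1.17 to 2.89, that of Ttr 1.08 to 3.37 and that of Apob 0.870 to 1.53. For Serpina3k the ratio was 4.09 to 8.81 and for Serpina1c 3.55 to 12.2, above that of Alb in 12 of 12 groups for both. Serpinc1 had ratios of 0.563 to 2.40. The part of hepatocyte RNA in the other groups' serpin levels was not tested.

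**Figure D5:**
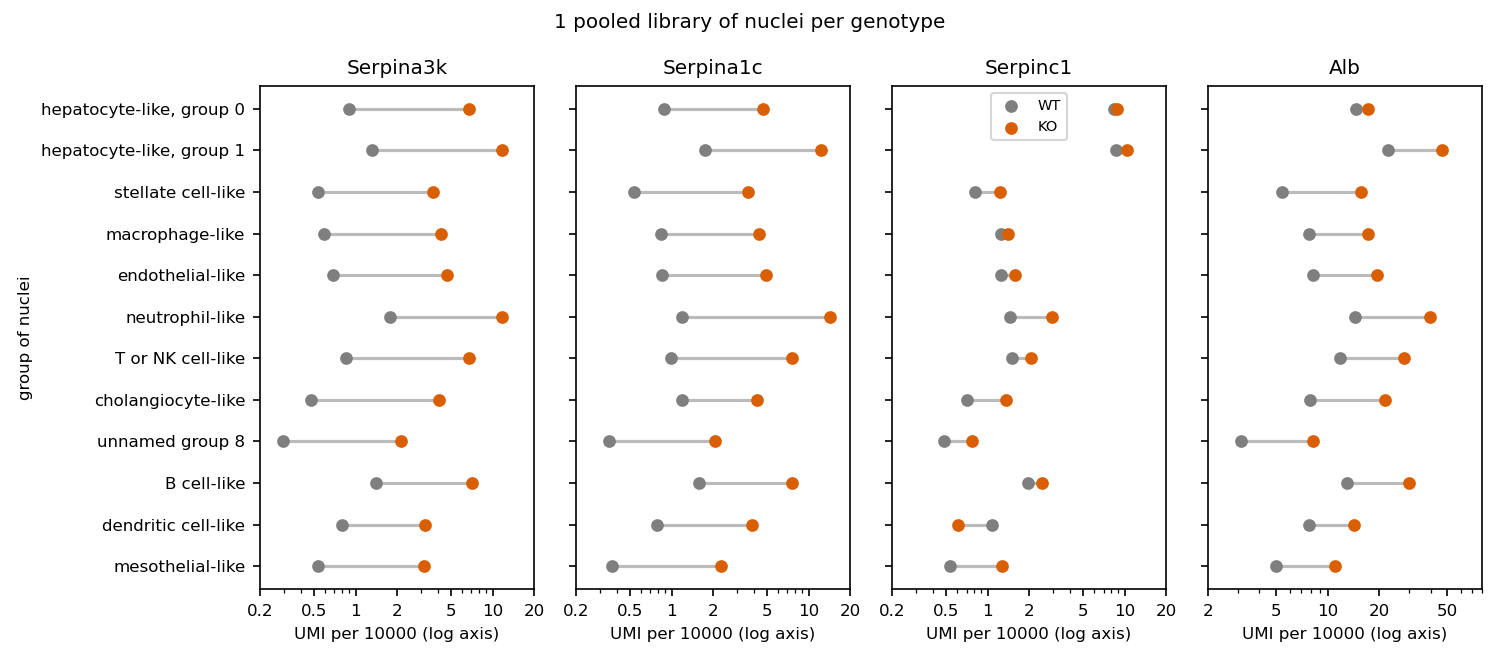
UMIs per 10000 (log axis) of Serpina3k, Serpina1c, Serpinc1 and Alb in each of 12 groups of nuclei, with 1 point per pooled genotype library joined by a line. Serpina3k lies between 0.293 and 1.78 in WT and between 2.16 and 11.6 in KO.

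Nuclei and bulk can be set side by side for the members called in bulk, by label. Serpina3k differed by -0.75 in bulk KO against WT, 1.499 in bulk LD against PBS, and 2.92 and 3.14 in the hepatocyte-like nuclei of KO against WT. Serpina11 differed by -0.16, 1.97, 2.003 and 1.72 in the same order. Serpina7 differed by 1.63 and -0.63 in bulk and by -0.25 and -1.82 in hepatocyte-like nuclei. Serpina9 differed by -1.41 in the bulk comparison labelled KO against WT, and was 0.00371 in WT and 0.0677 in KO in group 0. For Serpina3k, Serpina11, Serpina7 and Serpina9, the sign in hepatocyte-like nuclei was opposite to that in the bulk table labelled KO and WT. Serpina12 and Serpinb6a had the same sign in both. Among these genes limma called only Serpina7 and Serpina9 in that bulk table. The bulk signs of Serpina11 and Serpina12 changed when 1 library was left out (limma adjusted p of 0.804 and 0.637 with all libraries), so their comparison of signs is uncertain. Nuclei and bulk libraries differ in material and unit, and no test was made between them.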

How the data were processed

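RNA of mouse liver was measured in 12 bulk libraries and 2 libraries of nuclei. The deposited bulk signal values are gene counts that the authors scaled by 1 size factor per library. Dividing by the smallest step of a library gave whole reads for 100% of its values (tolerance 0.01). Per the submitters' processing notes, FastQC, STAR, DESeq2, Cell Ranger and Seurat 4.0.1 were used with mm10. The deposited log2 fold changes and adjusted p-values are the authors' own. Nuclei signal values were deposited by the authors as mean UMIs per 10000 in numbered groups, and the depth of the nuclei is unknown.

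Genes with at least 10 normalized counts in at least 3 of 6 libraries were tested by limma 3.58.1 in R 4.3.3, with a mean-variance trend, on log2 after adding 1. Tests were two-sided, with Benjamini-Hochberg adjustment over all genes tested and a threshold of 0.05. Alternatives were edgeR 4.0.16 and DESeq2 1.42.0 on recovered reads, other pseudocounts, filters and scalings, a replicate block, copies summed, and leaving out each library. The scripts were tested on simulated data. Members and lists were chosen with earlier results of these data known. Named were members called in either comparison, abundant members and a fixed set of known serpins; in nuclei, those past 2-fold, the pseudocount being the 5th percentile of levels above 0 and the floor the 50th percentile. Results of 1 member, which counts over the family include, are not reported here.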

Additional observations from a re-analysis of the deposited data

How the results depend on the processing

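In fits without 1 library, genes called ranged from 124 to 530 (589 with all libraries) for KO against WT and from 134 to 1226 (620) for LD against PBS, where 1226 came without LD replicate 3. Serpins called higher ranged from 0 to 2 and from 3 to 11, and lower from 0 to 1 and from 0 to 5. Partner list genes called ranged from 2 to 9 and from 8 to 24, and marker genes from 1 to 7 and from 2 to 9. Ms4a7 ranged from 2.22 to 2.88 in log2 in the first comparison and missed the threshold without KO replicate 2 or 3. The Serpina3 sum ranged from 1.14 to 1.52 and the Serpinb6 sum from -0.637 to -0.506 for LD against PBS.

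Signs changed only for values that no fit called. Leaving out 1 library in KO against WT gave ranges of -0.0792 to 0.118 for Serpina10, -0.394 to 0.123 for Serpina11, -1.68 to 0.272 for Serpina12, -0.373 to 0.088 for Serpina1d, -0.947 to 1.42 for Serpina1e, -0.88 to 0.659 for Serpina3h, -0.0731 to 0.0309 for Serpind1, -0.0657 to 0.14 for Serping1 and -0.377 to 0.0666 for the Serpina1 sum, which turned without KO replicate 3. In LD against PBS it gave -0.169 to 0.00504 for Serpina10, -0.162 to 0.178 for Serpina1a, -0.133 to 0.111 for Serpina1b, -0.357 to 0.0468 for Serpina3g and -0.149 to 0.137 for Serpinb8. Serpina3h turned to 0.289 with edgeR and 0.267 with DESeq2 in KO against WT. Quantile normalization turned Serpind1 to 0.0455 and Serpinf2 to 0.105 there, and Serpinb8 to 0.0513 in LD against PBS.

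DESeq2 called 1241 and 1221 genes, 6 serpins lower in KO, 10 higher and 7 lower in LD, 20 and 28 partner genes and 12 and 13 marker genes. It called the Serpina3 sum in KO (-0.71) and the Serpinb9 sum in LD (-0.516), and edgeR called the Serpina3 sum in KO (-0.697). Serpins called lower in KO were 2 with edgeR, quantile normalization and the replicate block, and those higher were 1 with copies summed. The LD median was 0.0663 after quantile normalization. In nuclei, serpin values lower in KO were 13 with a pseudocount at the 25th percentile, 2 above the 75th percentile of level (62 higher) and 48 with no floor. The cause of these shifts was not tested.

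Over all tested genes, deviations of same-numbered replicates had correlations of 0.119, -0.030 and -0.018 for KO and WT. For LD and PBS the correlations were 0.048, -0.043 and 0.132. With 3 libraries per group these values cannot show whether the numbers pair libraries. With the replicate block 822 and 793 genes were called, with 10 marker genes in KO. The block lost Serpinb6a in LD (adjusted p = 0.0568) and brought in Serpinb6b, Serpina1c and Serpina6 there (0.0185, 0.0433 and 0.0474) and Serpina3f and Serpina5 in KO (0.00758 and 0.0370). Depth limits low members: those not tested were mostly under 10 normalized counts.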
